A study of Mus musculus with 144 samples.

Results

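Livers of mice on the CR-night-6h regimen were compared between 2 sets of hours of the daily cycle: CT16, CT20, CT40 and CT44, which fall inside or shortly after the scheduled nightly meal (called fed hours), and CT04, CT08, CT28 and CT32, which fall well after it (called fasted hours). The libraries were chosen by regimen and sampling time, each time being represented by a library A and a library B, giving 8 fed and 8 fasted libraries, 16 of the 144 samples in the series. All animals were male wild-type C57BL/6J mice, each housed alone with a running wheel and fed purified 300 mg pellets by an automated feeder. The series text gives 6 months, read here as their age, and the growth notes give 8 weeks at entry. How these fit with the 10 weeks of feeding given below was not settled. CR-night-6h mice received 10 pellets a night in deliveries of 6, 2 and 2 that were 2 h apart from the start of the dark phase, which came to 70% of what they had eaten when food was unlimited. The regimens set beside them were AL (food at all hours), TR-night-6h (unlimited food for 6 h from the start of dark) and CR-day-6h (the restricted pellets from the start of light). TR-day-6h (unlimited food for 6 h from the start of light) entered the fit of all regimens, where its 16 libraries add to the estimate of spread, and is not compared. The file headers give 10 weeks of feeding, the labels a 12 h light and 12 h dark cycle, and the series text constant darkness while tissue was taken every 4 h for 2 days. Times are therefore read as circadian time (CT, in hours), with the scheduled meal at CT12 to CT18. Whether food was given while tissue was taken is not given in the sources used here, so fed and fasted name hours of the schedule. The count tables call the letters biological duplicates, but nothing says which letters share a batch or day, so p-values measure only the spread between these libraries.

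The liver takes up glucose and stores it as glycogen and fat after a meal, and releases glucose and ketone bodies when food is gone. Insulin raises the lipid-synthesis program driven by SREBP-1c and ChREBP, while glucagon and fasting raise gluconeogenic and fat-burning genes. The same cells run a circadian clock, in which ARNTL with CLOCK or NPAS2 activates the Per, Cry and Nr1d genes, whose products then repress that activation or Arntl itself. Body temperature also follows the daily cycle of activity and feeding, and heat shock chaperones and cold-inducible RNA-binding proteins respond to it. In CR-night liver the fed hours all lie in the subjective night and the fasted hours in the subjective day, so that within this regimen feeding and clock time cannot be told apart.

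The 16 libraries held 7123799 to 17264569 counted reads (median 10310161). Totals and the share of mitochondrial transcripts (27.7 ± 3.70% at fed and 29.4 ± 3.81% at fasted hours, SD, n = 8 each) did not differ beyond the spread between libraries (two-sided exact permutation p = 0.776 and 0.390). Levels are CPM (reads of a gene scaled to a library's TMM-adjusted total), a log2 fold is fed minus fasted with its SE and letter as a block, and a gene was called at an adjusted p under 0.05 (edgeR quasi-likelihood test, Benjamini-Hochberg over all genes tested). Fasted library CT04A stood apart from the rest. Its median correlation with the other fasted libraries was 0.924, against 0.948 or more for every other fasted library, and its Dbp level was 0.733 CPM where the other CT04 and CT28 libraries held 23.7, 31.9 and 17.5. Fasted library CT28A was closer to the fed (0.959) than to the other fasted libraries (0.948). Fed library CT40B was the least like its own group, at 0.953 against 0.969 or more for every other fed library. Its median correlation with the fasted libraries was 0.950. List counts within CR-night liver are therefore given beside those without CT04A and CT28A where these were computed, a setting chosen after seeing the data. It keeps CT40B. Shares of all genes beside the lists are those with all libraries, and counts over all genes in that setting are given with each comparison.

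Of 10970 genes tested, 1614 (14.7%) were higher and 1690 (15.4%) lower at fed hours, and 1662 and 1905 of 11004 without CT04A and CT28A. The median size of the called changes was 0.62 on the log2 scale. The 8 largest rises were Hspa1b, Hist2h3c1, Nat8f5, Pnpla3, Ppp1r3b, Acnat2, Hsph1 and Ppard, and the 8 largest falls Dbp, Nr1d1, Bhlhe41, Trib3, Gpcpd1, Syt1, Clec2h and Nr1d2. They include heat shock chaperones (Hspa1b, Hsph1), genes of fat and glycogen storage (Pnpla3, Ppp1r3b) and clock repressors or outputs (Dbp, Nr1d1, Nr1d2, Bhlhe41).

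Several of the largest changes lay outside those groups. Nat8f5, of the N-acetyltransferase 8 family, ranged over 11.2 to 25.7 CPM (median 15.3) at fed hours and 1.01 to 2.71 CPM (median 1.46) at fasted hours (log2 fold 3.41 ± 0.24, adjusted p = 5.27e-08). Acnat2, an acyl-CoA to amino acid N-acyltransferase, was 9.08-fold higher at fed hours, with 20.6, 56.9 and 100.2 CPM (lowest, median and highest) against 2.43, 6.35 and 13.9. No fed library of either gene overlapped a fasted one. Ppard, a nuclear receptor for fatty acids, held 2.98, 11.9 and 22.8 CPM at fed and 0.797, 1.38 and 2.63 at fasted hours (log2 fold 3.04 ± 0.38, adjusted p = 2.39e-05). Hist2h3c1, a histone H3 gene, went from 0.354, 0.786 and 3.93 CPM at fasted to 10.9, 19.1 and 27.9 at fed hours (log2 fold 3.80 ± 0.35, adjusted p = 1.37e-06). Reads of Nat8f5, Acnat2, Hspa1b and histone genes can be split among near-identical copies, so their levels are uncertain. On the falling side, Syt1, a synaptotagmin, held 2.1, 3.26 and 4.64 CPM at fed and 14, 22.7 and 43.2 at fasted hours (log2 fold -2.96 ± 0.24, adjusted p = 3.09e-07), again without overlap. Gpcpd1, which degrades glycerophosphocholine, held 22.6, 33.9 and 102 against 52.4, 295 and 718 CPM (log2 fold -2.96 ± 0.51, adjusted p = 0.000392). Clec2h, a C-type lectin, fell from a median of 5.54 to 0.686 CPM (log2 fold -2.70 ± 0.40, adjusted p = 0.000106).

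**Figure D1:**
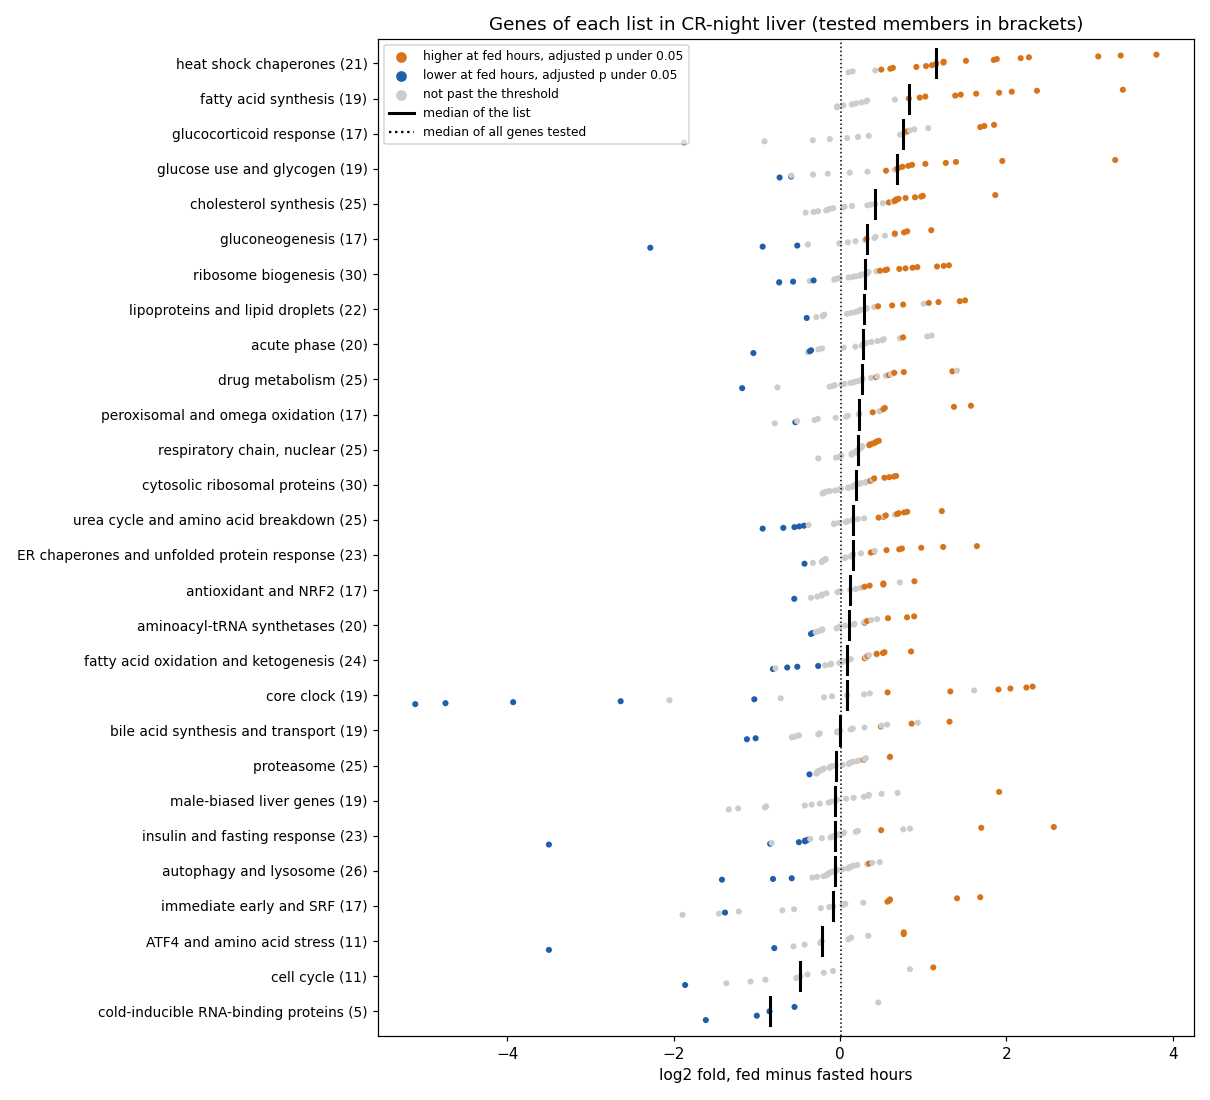
Log2 fold between fed and fasted hours (x axis) for every tested gene of 28 lists (rows, tested members in brackets) in CR-night liver, 8 libraries a side; each point is a gene, orange or blue where called, the bar is the list's median and the dotted line the median of all genes tested (0.013). Heat shock chaperones have the highest median (1.16) and cold-inducible RNA-binding proteins the lowest (-0.85).

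The clock genes moved in both directions. Of 19 core clock genes tested, 6 rose at fed hours, among them Arntl, Per2, Cry1, Nfil3 and Bhlhe40, and 5 fell (Nr1d1, Nr1d2, Dbp, Tef and Bhlhe41), against 14.7% and 15.4% of all genes. Without CT04A and CT28A the counts were 6 and 6. Dbp, a transcription factor and direct output of the clock, held 0.464, 1.19 and 2.65 CPM at fed and 0.733, 47.4 and 102 at fasted hours (lowest, median and highest), a log2 fold of -5.11 ± 0.64, adjusted p = 2.49e-05. Its groups overlapped through CT04A. Nr1d1, which encodes the Arntl repressor REV-ERB alpha, was 26.8-fold lower, at 0.871, 2.08 and 6.83 against 32.8, 67.6 and 103 CPM (log2 fold -4.75 ± 0.33, adjusted p = 5.27e-08). Its partner Nr1d2 held 8.27, 22.6 and 65.6 against 95.5, 176 and 273 CPM (log2 fold -2.64 ± 0.37, adjusted p = 6.86e-05). Neither gene's groups overlapped. Bhlhe41, a repressor at E-boxes, held 0.474, 1.29 and 2.17 against 0.466, 18.7 and 46.2 CPM (log2 fold -3.93 ± 0.63, adjusted p = 0.000243), and Tef, of the same bZIP family as Dbp, had a log2 fold of -1.03 ± 0.38, adjusted p = 0.0494. The Tef call was lost on leaving out any 1 of 11 libraries, and its log2 fold was 0.45 (adjusted p = 0.471) for CT16 and CT40 against CT04 and CT28.

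Cry1, a repressor of CLOCK and ARNTL, held 37.1, 48.1 and 73.4 CPM at fed and 6.04, 9.32 and 16.4 at fasted hours (log2 fold 2.32 ± 0.18, adjusted p = 1.69e-07). Its fed and fasted libraries did not overlap. Per2, another repressor of the same complex, held 26.6, 83.7 and 116 against 1.47, 19.2 and 34 CPM (log2 fold 2.05 ± 0.48, adjusted p = 0.00407). Nfil3, which competes with DBP for D-boxes, had a log2 fold of 1.33 ± 0.32, adjusted p = 0.00471. Arntl, the activator itself, held 21.8, 31.8 and 52 CPM at fed hours and spanned 0.236, 6.09 and 32.6 at fasted hours (log2 fold 1.91 ± 0.65, adjusted p = 0.035). That call was lost without any 1 of CT20A, CT44A, CT08B, CT20B, CT32B and CT44B. Without CT04A and CT28A the log2 fold was 3.29, adjusted p = 0.000935. That setting leaves out libraries of CT04 and CT28, where Arntl was higher than at CT08 and CT32 (log2 difference -5.13, later minus earlier). A larger fold there cannot be told apart from the changed mix of hours. Bhlhe40, a relative of Bhlhe41, was called in the full set (0.57 ± 0.20, adjusted p = 0.0398) and not without both libraries (0.37, adjusted p = 0.125). Clock, Npas2, Per1, Per3, Cry2, Rora, Hlf and Ciart were not called, with log2 folds from -2.05 (Ciart) to 1.61 (Npas2).

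The promoters of these genes carry known clock elements in places, shown for genes named here that moved. In windows of 250 bases before to 50 after the start of each gene (RefSeq, GRCm38.p6), the E-box CACGTG was present in 5 of 16 core clock genes with a window and in 11.9% of the windows of 8537 tested genes. The ROR element TAGGTCA, on either strand, was present in 2 of 16, Arntl and Nfil3, and in 2.55% of all windows. The D-box TTATGTAA was present in 1 of 16, Per3, and in 0.73% of all windows. Stretches around the element, in capitals, run 5′ to 3′ on the strand of the gene. They come from Bhlhe41 (chr6:145865528-145865613, minus strand), Tef (chr15:81802506-81802591, plus), Cry1 (chr10:85185069-85185154, minus), Arntl (chr7:113207530-113207558, plus) and Nfil3 (chr13:52981040-52981091, minus).
Bhlhe41: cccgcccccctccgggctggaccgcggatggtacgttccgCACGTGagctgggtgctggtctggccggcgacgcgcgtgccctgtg
Tef: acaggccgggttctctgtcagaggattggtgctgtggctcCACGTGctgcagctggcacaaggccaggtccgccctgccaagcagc
Cry1: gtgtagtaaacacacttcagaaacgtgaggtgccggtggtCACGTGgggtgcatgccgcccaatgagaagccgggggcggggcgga
Arntl: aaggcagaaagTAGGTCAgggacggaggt
Nfil3: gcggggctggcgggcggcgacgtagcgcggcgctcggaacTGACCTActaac
Bhlhe41 and Tef, with an E-box, fell at fed hours, and Cry1, with an E-box, rose, while Per1 and Ciart, also with one, were not called. Both genes with a ROR element rose. A match of letters is a description of the window and does not show that a factor binds there.

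**Figure D2:**
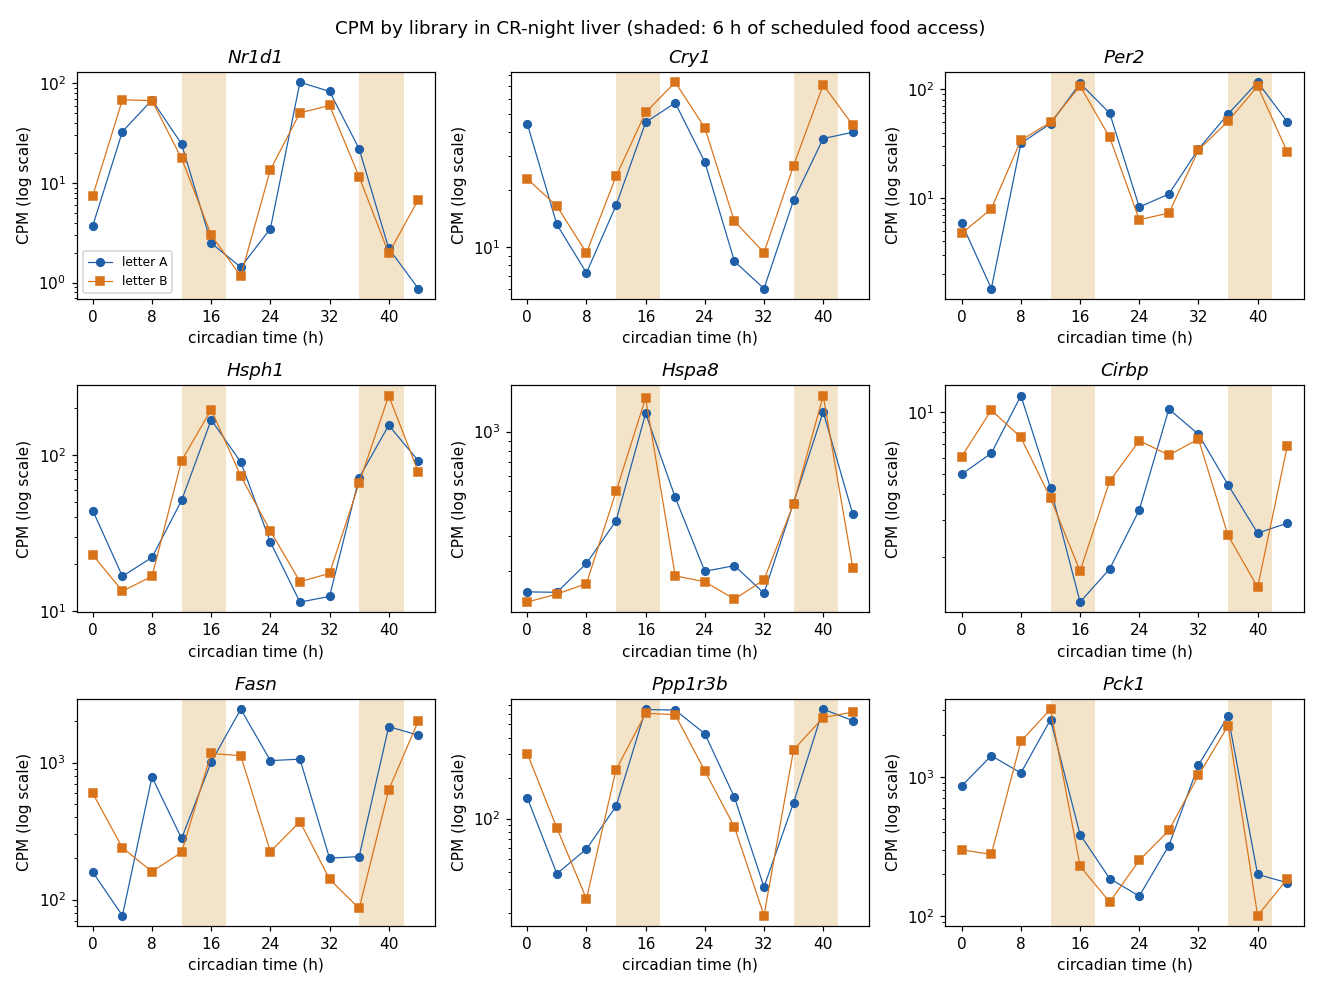
CPM on a log scale (y axis) by circadian time (x axis) of 9 genes in every CR-night liver library, 12 times with letters A (circles) and B (squares), with the 6 h of scheduled food access shaded. Nr1d1 is low at CT16, CT20, CT40 and CT44, while Hspa8 peaks at CT16 and CT40 in both letters.

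Heat shock chaperones rose at fed hours: 18 of 21 tested members rose and none fell, against 14.7% and 15.4% of all genes (17 and none without CT04A and CT28A). Their median log2 fold was 1.16. The members that did not pass were Hspa4, Hspd1 and Dnajb4. Hspa1b, the stress-inducible HSP70, held 0.569, 10.4 and 26.7 CPM at fed and 0.241, 0.865 and 1.51 at fasted hours (log2 fold 3.81 ± 0.71, adjusted p = 0.000843). Hspa8, the constitutive HSP70 of the cytosol, held 188, 849.6 and 1514 against 144, 164 and 218 CPM (log2 fold 2.27 ± 0.39, adjusted p = 0.000433). The fed and fasted ranges of both genes overlapped, through libraries taken at CT20 and CT44. Hsph1, an exchange factor for HSP70, held 73.5, 124 and 240.2 CPM at fed and 11.5, 16.1 and 22.2 at fasted hours, an 8.6-fold difference (log2 fold 3.10 ± 0.25, adjusted p = 2.65e-07). The HSP90 partners Stip1, Fkbp4 and Ahsa1 had log2 folds of 1.85 ± 0.10, adjusted p = 4.46e-09, of 1.89 ± 0.14, adjusted p = 1.43e-07 and of 1.15 ± 0.10, adjusted p = 6.27e-07. In Hsph1, Stip1, Fkbp4 and Ahsa1 every fed library was above every fasted library. Hsf1, the transcription factor that drives this program, was among the 18 genes.

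The heat shock element in its short form, GAANNTTC (the same on both strands), was present in 9 of 17 chaperone genes with a promoter window and in 7.34% of the 8537 windows. Genes with it were Hsph1, Hspa1b, Hspd1, Hspe1, Hspb1, Dnaja1, Bag3, Chordc1 and Fkbp4, of which all but Hspd1 rose. Most chaperones outside this set rose too, as 18 of all 21 tested did, among them Hspa8, Stip1 and Ahsa1. Whether the element goes with the rise was not tested. Windows are shown for the 3 of these genes named by size or p-value, with the element in capitals: Hspa1b (chr17:34959295-34959382), Fkbp4 (chr6:128438760-128438847) and Hsph1 (chr5:149636287-149636306), all on the minus strand of GRCm38.p6. The Hsph1 element lies after the start of the gene.
Hspa1b: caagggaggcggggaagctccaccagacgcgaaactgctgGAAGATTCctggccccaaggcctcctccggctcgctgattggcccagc
Fkbp4: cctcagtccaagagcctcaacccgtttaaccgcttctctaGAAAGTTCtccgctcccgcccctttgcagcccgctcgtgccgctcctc
Hsph1: tgcagattctgGAAAGTTCt

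Cold-inducible RNA-binding proteins went the other way. Of 5 tested genes, 4 fell and none rose, against 15.4% and 14.7% of all genes, with a median log2 fold of -0.85, also without CT04A and CT28A (4 and none). Cirbp, whose RNA rises on mild cooling, held 1.21, 2.17 and 6.83 CPM at fed and 6.2, 7.69 and 12 at fasted hours (log2 fold -1.61 ± 0.31, adjusted p = 0.000899). Srsf5, a splicing factor, held 211, 251 and 354 against 367, 567.7 and 771 CPM (log2 fold -1.0 ± 0.13, adjusted p = 3.08e-05). Srsf5 showed no overlap, while Cirbp overlapped. Clk1, a kinase of splicing factors, had a log2 fold of -0.55 ± 0.14, adjusted p = 0.00879. Rbm3 was not called, with a log2 fold of 0.46 ± 0.19 (adjusted p = 0.0756).

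The called genes of fatty acid synthesis all rose. Of 19 tested, 10 rose and none fell, against 14.7% and 15.4% of all genes, with a median log2 fold of 0.83 (12 of 20 and none without CT04A and CT28A). They were Acly, Acaca, Acacb, Fasn, Elovl6, Elovl3, Thrsp, Pnpla3 and the regulators Srebf1 and Mlxipl. Pnpla3, a lipid droplet protein under SREBP-1c, held 186, 247 and 338 CPM at fed and 3.13, 13.9 and 60.2 at fasted hours, a 10.6-fold difference in the fit (log2 fold 3.40 ± 0.56, adjusted p = 0.00028). Thrsp, a lipogenic factor, held 272, 387 and 606 against 2.06, 65.7 and 174 CPM (log2 fold 2.37 ± 0.46, adjusted p = 0.00108). Both genes separated the groups fully. Fasn, fatty acid synthase, held 632, 1373 and 2449 against 76.4, 219.5 and 1058 CPM (log2 fold 2.06 ± 0.42, adjusted p = 0.00149), and Acly, which supplies cytosolic acetyl-CoA, 931, 1446 and 2758 against 211, 462 and 952 (log2 fold 1.64 ± 0.34, adjusted p = 0.00188). Their ranges overlapped, as fasted library CT28A held 1058 CPM of Fasn and CT08A 783. Srebf1, which encodes SREBP-1, had a smaller log2 fold of 0.83 ± 0.19, adjusted p = 0.00344.

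Of 25 cholesterol synthesis genes tested, 10 rose and none fell, against 14.7% and 15.4% of all genes (9 and 1 without CT04A and CT28A). The median log2 fold was 0.42, and 18 of the 25 were above 0. Mvd, mevalonate diphosphate decarboxylase, had a log2 fold of 1.87 ± 0.36, adjusted p = 0.00106, Sqle, squalene epoxidase, of 0.90 ± 0.20, adjusted p = 0.00323, and Pmvk, phosphomevalonate kinase, of 1.00 ± 0.25, adjusted p = 0.00734. The groups overlapped in all 3 genes. An SREBP element, TCACNCCAC, was present in the promoter window of 1 of 17 cholesterol genes with a window (Hmgcs1). It was present in 1 of 15 fatty acid synthesis genes (Mlxipl) and in 1.48% of all windows.

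Genes of glucose use and glycogen rose in 11 of 19 cases (57.9%) and fell in 2 (10.5%), against 14.7% and 15.4% of all genes, with a median log2 fold of 0.69 (13 and 2 without CT04A and CT28A). Ppp1r3b, a subunit that targets protein phosphatase 1 to glycogen, was at 534, 611 and 649 CPM at fed and 19.1, 49.2 and 144 at fasted hours (log2 fold 3.31 ± 0.34, adjusted p = 2.91e-06). Pfkfb1, which sets fructose 2,6-bisphosphate, held 35, 46.3 and 59.9 against 9.33, 20.5 and 28.9 CPM (log2 fold 1.27 ± 0.18, adjusted p = 8.48e-05). Neither of these genes overlapped between fed and fasted libraries. Ppp1r3c, another glycogen targeting subunit, had a log2 fold of 1.39 ± 0.23, adjusted p = 0.000264. The 2 genes that fell were Slc2a2, the glucose transporter GLUT2, and Ugp2, which makes UDP-glucose.

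Of 17 genes of gluconeogenesis 5 rose (Slc37a4, Fbp1, Mdh2, Gpt and Tat) and 3 fell (Pck1, Ppargc1a and Sds), shares of 29.4% and 17.6% against 14.7% and 15.4% of all genes, and counts of 4 and 3 without CT04A and CT28A. Pck1, the gene of cytosolic phosphoenolpyruvate carboxykinase, held 101, 185 and 384 CPM at fed and 277, 1043 and 1794 at fasted hours, a 4.86-fold fall (log2 fold -2.28 ± 0.36, adjusted p = 0.000228). Its highest level was outside both groups, at CT12 and CT36 just as the meal was due, at 2665 ± 306 CPM (SD, n = 4). G6pc, glucose 6-phosphatase, was not called (259, 338 and 425 against 130.3, 208 and 589 CPM, log2 fold 0.54 ± 0.23, adjusted p = 0.0843) and also peaked there, at 879.6 ± 244 CPM. Slc37a4, its transport partner, had a log2 fold of 1.10 ± 0.29, adjusted p = 0.00973. Sds, serine dehydratase, held 10.2, 21.3 and 34.5 against 22.5, 42.8 and 67.6 CPM (log2 fold -0.93 ± 0.26, adjusted p = 0.0114).

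The list of insulin and fasting response genes had 3 risers (Akt2, Pdk4 and Angptl8) and 6 that fell (Irs2, Insr, Igfbp2, Foxo3, Trib3 and Sesn3) out of 23, or 4 and 5 without CT04A and CT28A. The shares of 13.0% and 26.1% stand against 14.7% and 15.4% of all genes. Angptl8, a feeding-induced inhibitor of lipoprotein lipase, held 12.2, 33 and 41.3 CPM at fed and 2.59, 4.39 and 9.45 at fasted hours (log2 fold 2.57 ± 0.26, adjusted p = 2.99e-06). Trib3, a pseudokinase that inhibits AKT, held 0.145, 0.361 and 1.28 against 2.03, 3.56 and 24.1 CPM (log2 fold -3.50 ± 0.56, adjusted p = 0.000252), with CT04A the highest fasted library. Irs2, the insulin receptor substrate that insulin represses, had a log2 fold of -0.84 ± 0.23, adjusted p = 0.0107. Pdk4, which blocks pyruvate oxidation and is best known as a fasting gene, was higher at fed hours, 17.2, 32.6 and 58.7 against 1.53, 7.61 and 50.3 CPM (log2 fold 1.70 ± 0.53, adjusted p = 0.0224, and 2.66, adjusted p = 0.000181 without both libraries). Within the fasted hours Pdk4 was lower at CT08 and CT32, which weigh more without both libraries. Pdk4 hour means ran from 3.37 ± 1.95 CPM at CT08 and CT32 to 50.7 ± 7.65 at CT20 and CT44. Igfbp1, Angptl4 and Fgf21, also known fasting genes, were not called. Igfbp1 had a log2 fold of -0.82 ± 0.92, adjusted p = 0.526, and CT04A held 658 CPM where the other fasted libraries held 31.8 or less. Angptl4 held a median of 8.65 CPM at fed and 11.4 at fasted hours. Fgf21 was too low to test, with medians of 0.319 and 0.283 CPM and 15.7 CPM in CT04A.

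Of 24 genes of mitochondrial fat oxidation and ketogenesis, 6 rose (25.0%) and 4 fell (16.7%), against 14.7% and 15.4% of all genes (3 and 4 without CT04A and CT28A). Of 17 peroxisomal and omega oxidation genes 5 rose and 1 fell (3 and 2). Cpt1a, which admits long-chain fatty acids to mitochondria, held 126, 194 and 303 CPM at fed and 197, 357 and 536 at fasted hours (log2 fold -0.81 ± 0.21, adjusted p = 0.00726), while Cpt2, the next step, held 56.6, 66.7 and 89.4 against 20.5, 38.8 and 55.8 (log2 fold 0.85 ± 0.15, adjusted p = 0.0006). The 2 steps of the same shuttle moved in opposite directions. Bdh1, the last step of ketone synthesis, fell (log2 fold -0.64 ± 0.19, adjusted p = 0.0183). Crat, carnitine acetyltransferase, and Acot1, a cytosolic thioesterase with near-identical copies, rose, with log2 folds of 1.37 ± 0.22, adjusted p = 0.000261 and of 1.57 ± 0.21, adjusted p = 4.37e-05.

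Lipid droplet and lipoprotein genes rose in 7 of 22 cases (31.8%) and fell in 1 (4.55%), against 14.7% and 15.4% of all genes, as also without CT04A and CT28A. Gpam, the first step of triglyceride synthesis, held 231, 379 and 454 CPM at fed and 76.5, 98.6 and 263 at fasted hours (log2 fold 1.5 ± 0.22, adjusted p = 0.000116). Agpat2, the next step, had a log2 fold of 1.18 ± 0.24, adjusted p = 0.00154, with CT28A at 77.6 CPM among fasted libraries that otherwise reached 39.2 CPM. Dgat2, the last step, had a log2 fold of 0.76 ± 0.20, adjusted p = 0.00881, and Plin5, a droplet coat protein, of 1.07 ± 0.24, adjusted p = 0.00365.

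Of 19 bile acid genes 3 rose (15.8%) and 2 fell (10.5%), shares near or below the 14.7% and 15.4% of all genes (5 and 3 without CT04A and CT28A). Cyp8b1, the sterol 12-hydroxylase, rose (log2 fold 1.32 ± 0.32, adjusted p = 0.00578), as did Cyp39a1 (0.86 ± 0.17, adjusted p = 0.00153) and Cyp27a1, while the transporters Abcc2 and Slco1b2 fell. Abcc2, which exports conjugates into bile, held 494, 558 and 684 CPM at fed and 880.5, 1078 and 1613 at fasted hours (log2 fold -1.01 ± 0.13, adjusted p = 3.53e-05), without overlap. Cyp7a1, the rate-limiting enzyme of bile acid synthesis, was not called (80.04, 214 and 578 against 12.9, 88.1 and 284 CPM, log2 fold 0.93 ± 0.55, adjusted p = 0.205). Of 25 drug metabolism genes, 5 rose (20.0%) and 1 fell (4.0%), against the same 14.7% and 15.4% (8 and 1 without both libraries). Fmo5, a flavin monooxygenase, held 652, 856 and 1394 against 239, 331 and 601 CPM (log2 fold 1.35 ± 0.21, adjusted p = 0.000156), and Cyp3a25 fell (log2 fold -1.18 ± 0.17, adjusted p = 9.82e-05).

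Of 17 glucocorticoid-responsive genes 4 rose (Fkbp5, Tsc22d3, Tat and Dusp1) and 1 fell, Klf9, shares of 23.5% and 5.88% against 14.7% and 15.4% of all genes (6 and 1 without CT04A and CT28A). Tsc22d3, which encodes GILZ, held 31.3, 48.9 and 62 CPM at fed and 5.86, 13.7 and 19.2 at fasted hours (log2 fold 1.85 ± 0.19, adjusted p = 3.58e-06), and Dusp1, a phosphatase of MAP kinases, 9.11, 14.4 and 17.5 against 1.94, 3.82 and 7.19 (log2 fold 1.69 ± 0.24, adjusted p = 7.91e-05). Klf9, a transcription factor, held 43, 78.5 and 119 against 169.7, 253 and 503 CPM (log2 fold -1.88 ± 0.22, adjusted p = 1.31e-05). All 3 separated fed from fasted libraries. Fkbp5, a chaperone of the glucocorticoid receptor, had a log2 fold of 1.74 ± 0.45, adjusted p = 0.00858, with its highest value in CT16A. For CT20 and CT44 against CT08 and CT32 alone its log2 fold was -0.06 and not called (adjusted p = 0.902). Of 17 immediate early and SRF targets, 5 rose (Dusp1 and the cytoskeletal Actb, Actg1, Vcl and Myh9) and 1, Junb, fell (7 and 1). Actg1 had a log2 fold of 1.41 ± 0.27, adjusted p = 0.00106 and Vcl of 0.59 ± 0.11, adjusted p = 0.000962.

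Genes of protein synthesis and of amino acid use are given against the same 14.7% and 15.4% of all genes. Ribosome biogenesis had 10 up and 3 down of 30 (10 and 4 without CT04A and CT28A), with the smallest p-values in Nolc1 (log2 fold 1.25 ± 0.17, adjusted p = 4.92e-05), Nop16 (0.71 ± 0.10, adjusted p = 5.52e-05), Utp20 (0.87 ± 0.12, adjusted p = 5.6e-05) and Mybbp1a (0.79 ± 0.11, adjusted p = 9.34e-05), while Npm1, Gnl3 and Dkc1 fell. Of 30 cytosolic ribosomal proteins 7 rose and none fell (8 and none), with a median of 0.19. ER chaperones had 8 up and 1 down of 23 (8 and 1), among them Creld2 (log2 fold 1.65 ± 0.28, adjusted p = 0.000422) and Hyou1 (1.24 ± 0.22, adjusted p = 0.000541). Urea cycle and amino acid genes had 8 up and 5 down of 25 (8 and 3 of 24), among them Asl, argininosuccinate lyase (log2 fold 1.22 ± 0.18, adjusted p = 9.34e-05), and Hpd, of tyrosine breakdown (0.70 ± 0.17, adjusted p = 0.00474). Aminoacyl-tRNA synthetases had 5 up and 2 down of 20 (7 and 3), with Aars at 0.81 ± 0.15, adjusted p = 0.00078.

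The remaining lists are given by their counts, again beside 14.7% of all genes higher and 15.4% lower. Nuclear-encoded respiratory chain subunits had 7 up and none down of 25 (7 and none), all small, such as Ndufb8 at 0.44 ± 0.11, adjusted p = 0.00711. Antioxidant genes had 5 up and 1 down of 17 (6 and 1), with Sod2 rising (0.52 ± 0.09, adjusted p = 0.000592) and Gclm falling (-0.55 ± 0.11, adjusted p = 0.0018). Autophagy and lysosome genes had 1 up and 3 down of 26 (2 and 3), where Wipi1, of the autophagosome, held 5.4, 8.19 and 12.2 CPM at fed and 16, 22 and 31.9 at fasted hours (log2 fold -1.42 ± 0.17, adjusted p = 1.84e-05). Acute phase genes had 1 up and 3 down of 20 (6 and 3) and proteasome genes 2 and 1 of 25 (2 and 5), shares at or below those of all genes with all libraries. The counts were 2 and 2 of 11 for ATF4 targets (4 and 2) and 1 and 0 of 19 for male-biased liver genes (1 and 3). Cell cycle genes had 1 up and 1 down of 11 (2 and 0). The one that fell, Top2a, was at 35.6 CPM in CT04A and at 2.47 CPM or less in the other fasted libraries, and was not called without CT04A and CT28A (-0.47, adjusted p = 0.321) or for CT20 and CT44 against CT08 and CT32 (0.02, adjusted p = 0.972). Among 13 mitochondrial transcripts, mt-Nd2 and mt-Nd3 fell and none rose.

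Markers of hepatocytes and of other liver cells were counted against the same 14.7% of all genes higher and 15.4% lower. Of 10 hepatocyte markers 5 rose (Alb, Cps1, Ass1, Serpina1c and Tat), and their summed level was 90337 to 116381 CPM at fed against 63025 to 92663 at fasted hours (two-sided exact permutation p = 3.11e-04, and 0.00133 without CT04A and CT28A). Of 10 stellate cell and fibroblast markers 7 fell (Lrat, Reln, Col1a1, Col1a2, Col3a1, Lum and Hgf) and Ecm1 rose (6 and 1 without both libraries). Their sum was 327 to 361 CPM at fed and 284 to 703 at fasted hours (exact permutation p = 0.0138, and 0.0460 without both). Col1a1, the collagen type I alpha 1 chain, held 1.2, 2.92 and 3.8 against 2.17, 5.63 and 33 CPM (log2 fold -1.55 ± 0.43, adjusted p = 0.0124), its highest value being in CT04A, and -0.81, adjusted p = 0.0391 without both libraries. Kupffer cell markers had 1 called gene, Cd5l, which fell, and sums of 43.9 to 118 and 41.9 to 141 CPM (exact permutation p = 0.388). Endothelial markers had 1, Gpr182, which rose (sum p = 0.296 by exact permutation). Bile duct markers summed to 26.4 to 44.1 against 32.0 to 72.1 CPM (exact permutation p = 0.0188) and lymphocyte markers to 0.901 to 3.63 against 3.17 to 10.2 CPM (exact permutation p = 7.77e-04). Only 2 of 8 bile duct and 1 of 10 lymphocyte markers were high enough to test singly. The lymphocyte sum thus rests on genes near the floor. Red cell sums were 43.6 to 58.2 CPM at fed and 25.0 to 76.5 at fasted hours (exact permutation p = 0.229), and 31.7 to 58.8 at fasted hours without CT04A and CT28A (exact permutation p = 0.0400, with the higher median at fed hours). Neutrophil sums gave an exact permutation p of 0.585, and all 7 adipocyte and 7 exocrine pancreas markers were under 0.5 CPM in every library. In bulk tissue, fewer cells of a type and less RNA per cell cannot be told apart, and the part of these cell types in the results above was not tested.

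The fed hours were then split into the earlier (CT16 and CT40, within the scheduled meal) and the later (CT20 and CT44, after it). Of 10970 genes, 116 (1.06%) were higher and 121 (1.1%) lower at the later hours, with 279 and 262 of 11004 called without CT04A and CT28A. Both are fasted libraries, which enter this comparison only through the shared spread, letter term, filter and scaling. Counts without them are thus no check of the fed libraries. Heat shock chaperones accounted for 7 of the genes that fell (Hsph1, Hspa8, Hspa1b, Dnaja1, Dnajb1, Dnajb4 and Chordc1), out of 21 tested, and none rose (8 and none without CT04A and CT28A). Hspa1b went from 21.7 ± 3.85 CPM at CT16 and CT40 to 1.77 ± 1.25 at CT20 and CT44 (SD, n = 4; log2 difference -3.61 ± 0.42, adjusted p = 0.000161). Hspa8 went from 1369.6 ± 146 to 312 ± 136 CPM (log2 difference -2.20 ± 0.23, adjusted p = 5.14e-05), and Hsph1 from 189.9 ± 37.5 to 83.5 ± 9.08 (-1.18 ± 0.18, adjusted p = 0.00178). The HSP90 partner Fkbp4 was not called, at 117 ± 14.4 and 145 ± 22.2 CPM (0.31 ± 0.18, adjusted p = 0.38).

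Besides chaperones, Alas1, the rate-limiting enzyme of heme synthesis, went from 755 ± 37.4 to 76.4 ± 44.4 CPM within the fed hours (log2 difference -3.31 ± 0.50, adjusted p = 0.00172). Fkbp5 went from 95.9 ± 57.4 to 22.9 ± 10.1 (-1.98 ± 0.39, adjusted p = 0.0112), Usp2, a deubiquitinase under the clock, had a difference of -2.05 ± 0.20, adjusted p = 4.02e-05, and Cyp26b1, of retinoic acid breakdown, of -1.97 ± 0.42, adjusted p = 0.0194. Cyp7a1 went from 405 ± 147 to 103 ± 34.3 CPM (-1.96 ± 0.40, adjusted p = 0.0142). The largest rises were Npas2, from 0.995 ± 0.655 to 17.6 ± 3.16 CPM (4.21 ± 0.43, adjusted p = 4.02e-05), Sytl5, Ndrg1, Camk1d, Spata22 and Rnf125. Spata22 (1.92 ± 0.20, adjusted p = 4.02e-05) stands in the table under 2 identifiers with almost equal counts, so its level is uncertain. Camk1d, a calcium-dependent kinase, went from 62.8 ± 7.78 to 239 ± 20.1 CPM (1.94 ± 0.23, adjusted p = 0.000211) and Rnf125, a ubiquitin ligase, from 53.3 ± 7.16 to 199 ± 34.4 (1.90 ± 0.26, adjusted p = 0.000631). Camk1d and Rnf125 were not called between fed and fasted hours (-0.61 ± 0.35, adjusted p = 0.189 and -0.62 ± 0.37, adjusted p = 0.219).

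The fasted hours were split in the same way, CT08 and CT32 against CT04 and CT28. Here 176 genes (1.6%) were higher and 182 (1.66%) lower at the later hours, and without CT04A and CT28A the counts were 86 and 92 of 11004. Of 19 core clock genes 12 rose and 4 fell (Arntl, Clock, Npas2 and Nfil3), or 10 and 4 without CT04A and CT28A. Arntl went from 18.3 ± 9.77 CPM at CT04 and CT28 to 0.497 ± 0.181 at CT08 and CT32 (SD, n = 4; log2 difference -5.13 ± 0.36, adjusted p = 1.93e-07), and Npas2 from 5.62 ± 2.5 to 0.155 ± 0.165 (-4.92 ± 0.59, adjusted p = 9.76e-05). Ciart, a repressor of the clock, went from 0.52 ± 0.135 to 16.4 ± 3.73 CPM (4.99 ± 0.32, adjusted p = 5.97e-08), and Per3 from 6.48 ± 4.22 to 53.3 ± 8.05 (3.07 ± 0.41, adjusted p = 0.000339). Per1 had a difference of 2.98 ± 0.36, adjusted p = 0.00011 and Usp2 of 4.96 ± 0.23, adjusted p = 7.09e-10. Ciart, Per1, Per3 and Npas2 were called here and not between fed and fasted hours.

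Of 23 insulin and fasting response genes 6 rose within the fasted hours (Insr, Foxo3, Angptl4, Lpin1, Creb3l3 and Klf15) and 2 fell (Cdkn1a and Pdk4), against 1.6% and 1.66% of all genes, and 4 and 1 without CT04A and CT28A. Of 24 genes of mitochondrial fat oxidation and ketogenesis 3 rose and none fell (2 and none), and of 17 peroxisomal and omega oxidation genes 3 rose and none fell (2 and none). None of 19 fatty acid synthesis genes, 17 of gluconeogenesis or 25 of the urea cycle and amino acid breakdown was called with all libraries, and 1 of 25 cholesterol genes, Stard4, rose. Cpt1a went from 252 ± 56.5 to 452 ± 66.2 CPM (0.86 ± 0.16, adjusted p = 0.00466), and Ppara, the receptor that drives fat oxidation, also rose. Acot3, a peroxisomal thioesterase, went from 7.52 ± 3.21 to 76.7 ± 44.2 CPM (3.35 ± 0.41, adjusted p = 0.000105). Alas1 had a difference of 2.86 ± 0.50, adjusted p = 0.00284 and Cyp7a1 of 2.39 ± 0.40, adjusted p = 0.00229. CT04A was the highest fasted library for all 6 of the largest falls, which were Arntl, Npas2, Cdkn1a, Dhrs9, Egr1 and Tubb2a. Cdkn1a, an inhibitor of the cell cycle, was at 46.2 CPM there and at 4.46, 2.4 and 3.37 in the other CT04 and CT28 libraries. Egr1, an immediate early gene, was at 110.1 CPM there and at 14.8 or less in the other fasted libraries, and Dhrs9, a retinol dehydrogenase, at 42.2 against 9.15 or less in the other fasted libraries. Tubb2a, a tubulin, was at 56 CPM in CT04A and at 23.8 or less in the other fasted libraries (-3.04 ± 0.35, adjusted p = 6.95e-05). Without CT04A the log2 differences were -1.86 for Cdkn1a (adjusted p = 0.136) and -1.44 for Egr1 (adjusted p = 0.252), no longer called, while Arntl, Npas2, Dhrs9 and Tubb2a were still called. Kupffer cell markers fell in 6 of 10 cases (Clec4f, Cd5l, Vsig4, Adgre1, C1qb and C1qc), against 1.66% of all genes, and in 4 without CT04A and CT28A, with a median log2 difference of -1.16. All 10 markers of sinusoidal endothelium had a negative difference (median -0.76), and Lyve1 and Oit3 were called (1 of the 10 called without CT04A and CT28A). Of 10 stellate cell and fibroblast markers, Col3a1 was called lower, and none without CT04A and CT28A. The part of these cell types in the differences was not tested.

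**Figure D3:**
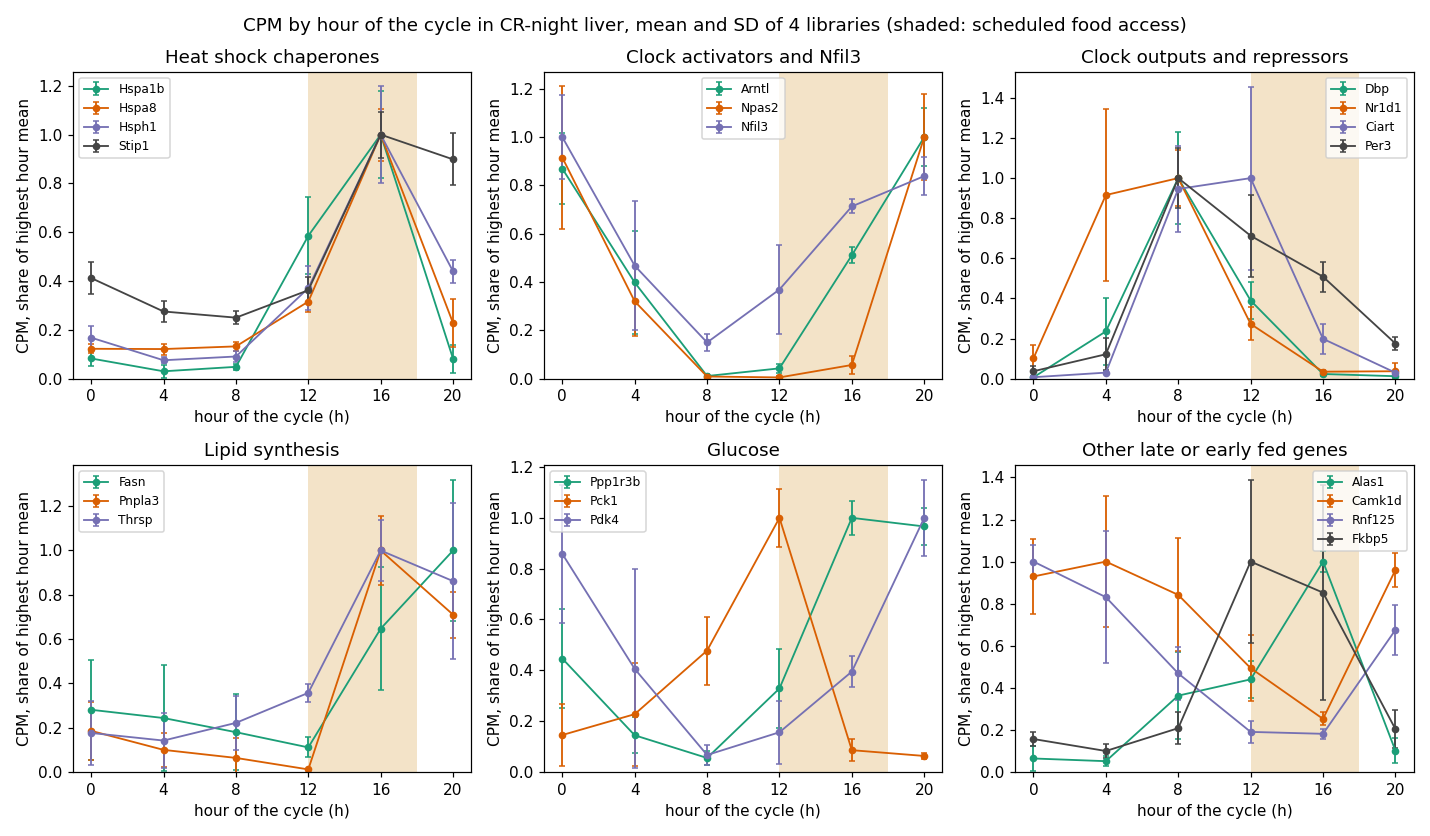
CPM by hour of the cycle as a share of the gene's highest hour mean (y axis), at the 6 sampled hours (x axis), mean and SD of 4 libraries (2 days, 2 letters) in CR-night liver, with scheduled food access shaded. Hspa1b, Hspa8 and Alas1 are high at CT16 and low again at CT20, while Ppp1r3b is high at both hours and Pck1 peaks at CT12.

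The same hours were compared in the other regimens, in a fit of the 80 liver libraries from those hours in all 5 regimens. There CR-night had 2017 genes higher and 2166 lower of 12128. TR-night, which shares the meal hours but not the limit on food, had 1347 (11.1%) and 1466 (12.1%), and AL 518 (4.27%) and 542 (4.47%). The regimens share no library. Of the 4183 CR-night genes, 2266 were called in the same direction in TR-night liver (54.2% of the CR-night and 80.6% of the TR-night calls) and 848 in AL liver (20.3% and 80%), and none in the opposite direction in either.

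Tested directly, the hour difference differed between CR-night and TR-night in no gene (0.0%, edgeR quasi-likelihood test) and between CR-night and AL in 1 gene (0.00825%). At an unadjusted p under 0.05 there were 285 and 1294 genes of 12128. A test that misses the threshold does not show that the regimens act alike. The gene that differed from AL was Zbed5, a zinc finger gene that fell from 2.66, 6.46 and 8.21 to 0.744, 0.974 and 1.27 CPM in CR-night liver (log2 fold -2.57 ± 0.27 in CR-night and -0.29 ± 0.22 in AL, difference -2.28 ± 0.35, adjusted p = 0.000128), and it was not called within either letter alone.

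The lists are given for each regimen against its own share of all genes called, 4.27% higher and 4.47% lower in AL and 11.1% and 12.1% in TR-night. Heat shock chaperones rose in 17 of 21 cases in AL and 18 of 21 in TR-night liver, with medians of 1.00 and 1.24. Cold-inducible genes fell in 3 of 5 cases in AL and 4 of 5 in TR-night, where Rbm3 rose. Fatty acid synthesis genes rose in 2 of 20 in AL and 10 of 20 in TR-night (medians 0.39 and 0.71). Cholesterol genes rose in none of 25 and fell in 6 in AL liver, with a median of -0.16, and rose in 8 with none falling in TR-night (median 0.33). Pck1 had log2 folds of -0.76 ± 0.35 in AL, -2.22 ± 0.36 in TR-night and -2.29 ± 0.36 in CR-night liver, and was not called in AL. Nr1d1 was lower in all 3, at -3.90 ± 0.48, -5.05 ± 0.54 and -4.74 ± 0.52. None of the members of these lists differed between CR-night and AL or TR-night beyond the threshold. Below it, the difference from AL was positive in 25 of 25 cholesterol genes (median 0.63) and 18 of 20 fatty acid synthesis genes (0.35). Against TR-night it was positive in 12 of 25 (median -0.002) and 13 of 20 (0.073). The median over all genes was 0.006 for AL and -0.003 for TR-night.

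**Figure D4:**
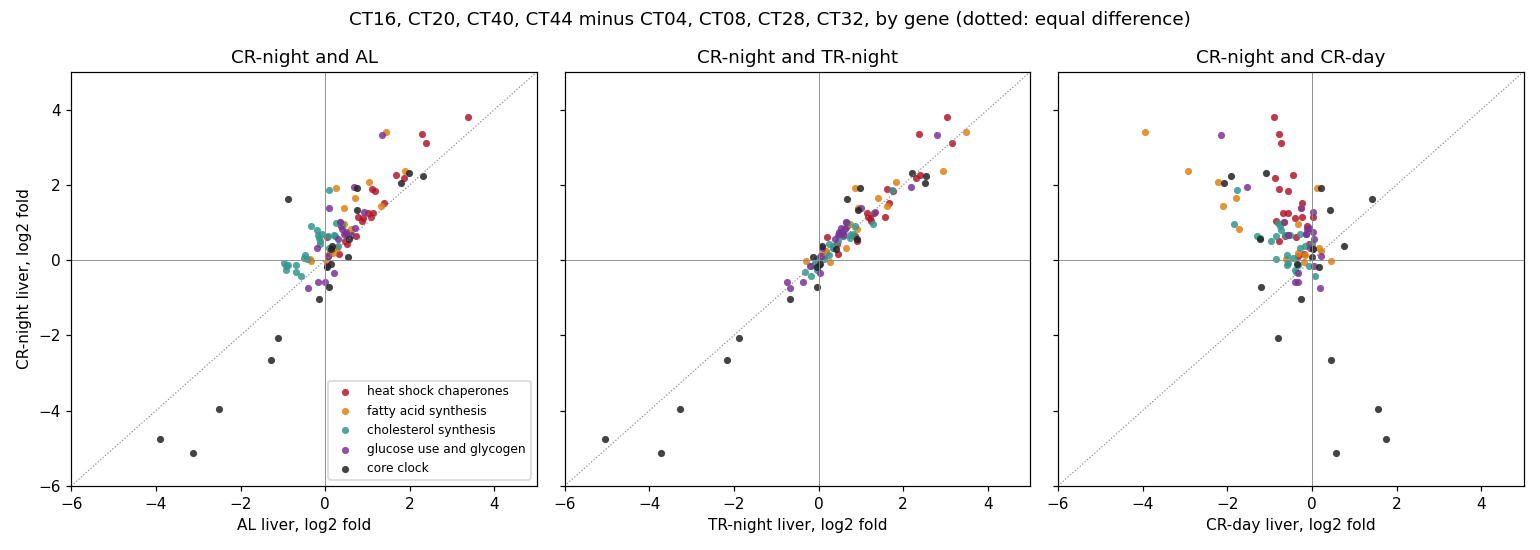
Log2 fold between the same 2 sets of hours in CR-night liver (y axis) against AL, TR-night and CR-day liver (x axis, 1 panel each) for the genes of 5 lists, 8 libraries a side in each regimen; each point is a gene and the dotted line marks equal differences. Of the chaperone genes above 0 in CR-night, 20 of 21 are below 0 in CR-day.

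In CR-day liver (the same pellets from the start of light), 3085 of the 4183 genes called in CR-night (73.8%) had the opposite sign, called there or not. The share of opposite signs over all genes was not computed. At CT16, CT20, CT40 and CT44, 954 genes (7.87%) were higher and 944 (7.78%) lower in CR-day liver. Of the 4183 CR-night genes, 79 were called in the same direction (1.89% of the CR-night and 4.16% of the CR-day calls), while 836 were called in the opposite one (20.0% and 44.0%). The hour difference itself differed between CR-night and CR-day in 4388 genes, 2146 higher (17.7%) and 2242 lower (18.5%). Without CT04A and CT28A 2143 were higher and 2105 lower of 12228.

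Metabolic genes were among the largest of these. Pnpla3 had log2 folds of 3.40 ± 0.62 in CR-night and -3.93 ± 0.64 in CR-day liver (difference 7.34 ± 0.89, adjusted p = 8.68e-10). Nat8f5 had 3.41 ± 0.32 and -3.79 ± 0.32 (7.20 ± 0.46, adjusted p = 6.22e-21), and Ppp1r3b 3.31 ± 0.37 and -2.14 ± 0.35 (5.45 ± 0.50, adjusted p = 8.49e-14). All 3 rose at these hours in CR-night and fell in CR-day liver. Thrsp differed by 5.29 ± 0.59, adjusted p = 6.07e-11 and Angptl8 by 5.28 ± 0.48, adjusted p = 4.15e-14. Pck1 had -2.29 ± 0.36 in CR-night and 2.20 ± 0.36 in CR-day (-4.49 ± 0.51, adjusted p = 1.07e-10), Trib3 -3.50 ± 0.49 and 2.50 ± 0.44 (-6.0 ± 0.66, adjusted p = 4.11e-11), and Fbxo21, an F-box protein, -2.61 ± 0.28 and 1.60 ± 0.26 (-4.21 ± 0.38, adjusted p = 3.99e-14). Fatty acid synthesis genes differed in 11 of 20 cases and cholesterol genes in 15 of 25, all higher in CR-night, against 17.7% of all genes (11, and 15 with 1 lower, without CT04A and CT28A). In CR-day liver itself 8 of 20 and 12 of 25 fell at these hours and none rose, against 7.78% and 7.87%.

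Chaperones differed as well. Of 21 chaperones 18 had a higher hour difference in CR-night than in CR-day liver, against 17.7% of all genes, and in CR-day 8 fell and none rose. Hspa1b had 3.81 ± 0.72 in CR-night and -0.89 ± 0.60 in CR-day (difference 4.70 ± 0.94, adjusted p = 5.8e-05), and Hsph1 3.10 ± 0.38 and -0.73 ± 0.35 (3.84 ± 0.51, adjusted p = 1.11e-08). The CR-day values of Hspa1b and Hsph1 were not called. Among clock genes, Nr1d1 had -4.74 ± 0.52 and 1.74 ± 0.44 (-6.49 ± 0.68, adjusted p = 9.81e-12), Dbp -5.12 ± 0.93 and 0.58 ± 0.73 (-5.70 ± 1.18, adjusted p = 9.72e-05), and Bhlhe41 -3.94 ± 0.71 and 1.56 ± 0.74 (-5.51 ± 1.02, adjusted p = 1.5e-05). Of 19 core clock genes 4 (21.1%) were higher in CR-night, among them Cry1 (3.40 ± 0.53, adjusted p = 5.99e-07), Per2 and Bhlhe40, and 4 lower (Nr1d1, Nr1d2, Dbp and Bhlhe41), shares near the 17.7% and 18.5% of all genes (6 and 4 without CT04A and CT28A). Klf9, the glucocorticoid target that fell at fed hours, was lower in CR-night (-1.88 ± 0.29) and higher in CR-day liver (1.26 ± 0.28; difference -3.14 ± 0.40, adjusted p = 3.46e-09), and Hist2h3c1 was higher at these hours in both (3.79 ± 0.36 and 0.97 ± 0.32). Stellate cell markers, lower at these hours in CR-night, were higher in 6 of 10 cases in CR-day liver, and Kupffer cell markers in 7 of 10, against 7.87% of all genes there, values whose part in the difference was not tested.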

How the data were processed

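Liver polyadenylated RNA was sequenced in 120 of the 144 samples, and the 80 liver libraries at the hours compared entered the tests. Unnormalized gene-level read counts, as deposited by the authors in 1 table per regimen, were the input to every test. RPKM values, deposited separately, served only as a check and are scaled by library and gene length. They cover 11350 of the 21869 genes in the counts. Reads went through FastQC and cutadapt, STAR and featureCounts, per the submitters' processing notes. Versions and genome build are not given in the sources used here. Whether counting used strand is not given either, so overlapping genes may share reads.

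Analyses used R 4.3.3 with edgeR 4.0.16 (filterByExpr, TMM, glmQLFit, glmQLFTest), its dependency limma 3.58.1, and DESeq2 1.42.0, and Python 3.11.15 with scipy 1.17.1. The letter was a block in each fit, as the choice of libraries asked. Same-letter libraries of the 2 sets of hours correlated at a median of 0.0635 (32 pairs) after removing group means. SE is the absolute log2 fold divided by the root of F. The script was tested on simulated data. Members, lists and tests were chosen with earlier results of these data known. Named genes are the 8 largest rises and falls with at least 5 CPM and one sign in both letters and days, every core clock gene, 15 listed genes, up to 4 members with the smallest p per list, and the 6 largest each way in each other test. Other genes named were chosen after their values were seen. Results for some genes that this rule takes are not reported here, though counts over lists and over all genes include them. No molecular identifiers are described in the sources used here, so reads are not known to be independent molecules.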

Additional observations from a re-analysis of the deposited data

Results flagged for a closer look

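Among 349 sets of 8 libraries (each named gene at fed or at fasted hours), 37 held 1 library that stood apart. Its gap to the nearest of the others was over 0.526 of the whole range. Draws from 1 normal distribution give such a gap in about 1 in 20 sets. These sets pool CPM of 2 hours of the cycle, so that rate need not hold for them. Fasted library CT04A accounted for 18 of the 37. There it held 13.9 CPM of Acnat2, 46.2 of Cdkn1a, 33.0 of Col1a1, 41.2 of Col1a2, 42.2 of Dhrs9, 110.1 of Egr1, 15.7 of Fgf21, 3.93 of Hist2h3c1 and 658 of Igfbp1. It also held 28.6 CPM of Lum, 65.0 of Mki67, 24.3 of Nfil3, 50.3 of Pdk4, 10.1 of Plin5, 1601 of Tat, 35.6 of Top2a, 24.1 of Trib3 and 56.0 of Tubb2a, and it was the highest fasted library for all 18 genes. The median of the 8 fasted libraries was 23.0 CPM for Igfbp1, 2.76 for Mki67 and 1.82 for Top2a.

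Other fasted libraries stood apart for single genes. CT28A held 77.6 CPM of Agpat2, CT32A 142 of Acot3, CT28B 589 of G6pc and 99.9 of Ppp1r3c, and CT08A 244 of Rora and, as the lowest, 28912 of mt-Co1. CT04B held 3.25 CPM of Ms4a1, 7.23 of Timd4 and, as the lowest, 11.2 of Utp20. At fed hours CT16A held 176 CPM of Fkbp5, 102 of Gpcpd1 and 384 of Pck1, CT20B 37.3 of Farsb, 99.5 of Igfbp1, 200.4 of Rora and 1.28 of Trib3, CT40A 9.11 of Farsa, CT40B 168 of Clk1 and CT44B 6.83 of Nr1d1.

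The hour difference was itself tested between regimens (edgeR quasi-likelihood test). It differed between CR-night and CR-day liver in 4388 genes. The 6 named genes with the largest positive difference were Pnpla3 (log2 7.34), Nat8f5 (7.20), Ppp1r3b (5.45), Thrsp (5.29), Angptl8 (5.28) and Hspa1b (4.70). Those with the largest negative difference were Nr1d1 (-6.49), Trib3 (-6.0), Dbp (-5.70), Bhlhe41 (-5.51), Pck1 (-4.49) and Fbxo21 (-4.21). Between CR-night and AL liver it differed in Zbed5 (-2.28).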

How the results depend on the processing

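The fed versus fasted count of 3304 genes was 2912 without the replicate block, 3285 with DESeq2 size factors, 3138 with no filter, 3303 without mitochondrial transcripts, 3576 with DESeq2, 4183 in the fit of 80 libraries, 3029 for CT20 and CT44 against CT08 and CT32, and 2556 to 3641 on leaving out 1 library. Smaller sets of libraries gave 366 (letter A), 1230 (letter B), 974 (day 1), 671 (day 2) and 1478 (CT16 and CT40 against CT04 and CT28), with fewer samples in each. Without CT04A and CT28A, chosen after seeing the data, it was 3567, of which 2951 were among the 3304. CT28A was left out for its likeness to the fed libraries, so that count is not an independent check. Of 133 named and called genes, 131 kept direction and call with DESeq2 and 127 without the block, against 38 in letter A alone. Among these 133 only 3 turned, none of them called. They were Fkbp5 (-0.056) and Top2a (0.024) for CT20 and CT44 against CT08 and CT32, and Tef (0.453) for CT16 and CT40 against CT04 and CT28. The cause was not tested. The 8 largest rises and 8 largest falls were chosen for one sign in both letters and days, so they could not turn in those settings. The early versus late fed count of 237 was 145 without the replicate block, 245 with DESeq2 size factors, 541 without CT04A and CT28A, and 95 to 496 on leaving out 1 library, beyond 1.5 times without CT04A (496), CT16A (96), CT20A (142), CT44A (141), CT16B (134), CT20B (146), CT40B (118) or CT44B (95). For the fasted hours, 358 became 269, 359 and 178 under the same settings, and 192 to 577 on leaving out 1 library, beyond 1.5 times without CT28A (577), CT32A (200), CT04B (226), CT08B (192) or CT32B (196). In each of these splits, libraries of the other set of hours enter only through the shared spread, letter term, filter and scaling. The cause of these shifts was not tested further. The 1 gene that differed from AL became 0 without the block and within either letter, and 3 without CT04A and CT28A. For TR-night the count was 0 in every setting run. For CR-day 4388 became 3145 without the replicate block, 4407 with DESeq2 size factors, 2518 within letter A, 1421 within letter B and 4248 without CT04A and CT28A. Same-letter libraries of opposite hours had a median correlation of 0.0635 and other-letter ones of -0.0634. Depth limits genes of a few CPM, such as Hspa1b, Dbp and Trib3 in their low group.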

Other observations

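The hour of meal onset, CT12 and CT36, belongs to neither group, and CT00 and CT24 lie between the groups. At CT12 and CT36 the hour means of some genes were outside those of the fed and the fasted hours. Tat, tyrosine aminotransferase, held 2598 ± 639 CPM (SD, n = 4) there, against 578 ± 172 at CT08 and CT32 and 1538 ± 352 at CT16 and CT40. Tsc22d3 held 73 ± 25.4 CPM and Fkbp5 113 ± 43.8 at CT12 and CT36, while Fasn held 198 ± 81. Hspa1b held 12.7 ± 3.41 CPM and Hspa8 432 ± 59 at that hour, between their levels at CT08 and at CT16. At CT00 and CT24, Ppp1r3b held 275 ± 121 CPM, Nat8f5 5.26 ± 3.46 and Ppard 10.3 ± 5.46, each between the late fed and the early fasted hours. These hours were not tested.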
